A study of Mus musculus with 8 samples.

Results

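The genes described here are the 2 corticosteroid receptors, the proteins that set how strongly those receptors respond, and the corticotropin-releasing hormone (CRH) system, in mouse medial prefrontal cortex 6 days after 1 stress exposure. The 10 genes were taken by name (Nr3c1, Nr3c2, Fkbp5, Fkbp4, Hsd11b1, Crh, Crhr1, Crhbp, Ncoa1 and Ncoa2), and every array probe annotated to one of them was kept. This gave 20 of the 45281 probes, for 10 of the 19057 genes named on the array. RNA came from 1 mm punches of the medial prefrontal cortex of both hemispheres, from male mice aged 10 weeks. The stressed group (labelled IMO, 4 arrays, replicates 1 to 4) had been immobilized for 2 h and was examined under basal conditions 6 days later, and the controls (labelled No stress, 4 arrays, replicates 5 to 8, called unstressed here) had none. No strain, genetic change or drug is named for either group in the sources used here. Whether the arrays stand for separate animals is not stated in the labels, and p-values here measure only the spread between samples, which may be technical.

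Corticosterone, the stress hormone of mice, acts in neurons through the mineralocorticoid receptor (Nr3c2) and the glucocorticoid receptor (Nr3c1), which sit in the cytosol in a complex with Hsp90 until hormone binds. Fkbp5 in that complex lowers the receptor's affinity for hormone and is itself induced by glucocorticoids, Fkbp4 links the complex to transport towards the nucleus, and Hsd11b1 regenerates active corticosterone inside the cell. Ncoa1 and Ncoa2 are coactivators that bind hormone-loaded receptors. CRH starts the hormonal stress response in the hypothalamus and is also made by cortical interneurons, where it acts on the receptor Crhr1 and is bound and held back by Crhbp.

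Among these genes 0 of the 10 probes that could be tested differed between stressed and unstressed samples after adjustment over all probes. The same held for the whole array, where 0 of 20531 tested probes passed. Mean signal in stressed samples was 23.5% higher for Fkbp5 and 19.2% higher for Crhbp. For the 3 detected probes of Hsd11b1 the changes were -14.3%, -13.2% and -19.3%. In each of these the groups overlapped, where 6.92% of all tested probes had groups that did not. The clearest spread among these genes ran across arrays and not between groups. Crhr1 was low, and Fkbp5 and Crhbp high, on the same pair of arrays.

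Fkbp5 and Crhbp, which were high on the same arrays, and Hsd11b1, whose mean difference had the opposite sign, are shown with their promoters, from 250 bases before to 50 after the annotated start (RefSeq, GRCm38.p6). Capitals mark a GC box (GGGCGG) or a TATA box (TATAAA), read on both strands. The windows are chr17:28486100-28486399 for Fkbp5, chr13:95444782-95445081 for Crhbp and chr1:193242311-193242610 for Hsd11b1, all on the minus strand.
Fkbp5: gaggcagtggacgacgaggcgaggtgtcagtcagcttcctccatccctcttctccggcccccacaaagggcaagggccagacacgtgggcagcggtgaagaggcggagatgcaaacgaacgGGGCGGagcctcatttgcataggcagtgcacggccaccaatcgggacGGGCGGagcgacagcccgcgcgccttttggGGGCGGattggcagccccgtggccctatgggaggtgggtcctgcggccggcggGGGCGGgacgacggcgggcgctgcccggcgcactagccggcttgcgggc
Crhbp: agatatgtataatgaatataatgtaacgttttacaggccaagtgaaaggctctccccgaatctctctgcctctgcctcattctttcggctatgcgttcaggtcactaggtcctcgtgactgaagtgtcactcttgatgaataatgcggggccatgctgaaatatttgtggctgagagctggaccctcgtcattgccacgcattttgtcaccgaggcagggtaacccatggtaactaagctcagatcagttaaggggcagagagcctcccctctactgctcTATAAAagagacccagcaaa
Hsd11b1: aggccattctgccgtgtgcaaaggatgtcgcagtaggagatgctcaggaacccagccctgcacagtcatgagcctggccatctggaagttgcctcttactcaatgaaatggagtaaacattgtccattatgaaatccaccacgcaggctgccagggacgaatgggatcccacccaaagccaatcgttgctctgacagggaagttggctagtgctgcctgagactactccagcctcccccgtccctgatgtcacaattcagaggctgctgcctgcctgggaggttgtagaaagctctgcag

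Fkbp5 and Crhbp did not share these motifs. The Fkbp5 window held 4 GC boxes and no TATA box, with 70.7% G and C. The Crhbp window held 1 TATA box, 31 bases past the annotated start, and no GC box, with 48.0% G and C. Hsd11b1 had neither. Of 32851 promoter windows 35.7% held a GC box and 13.6% a TATA box. The glucocorticoid response element, searched as AGAACA followed after 3 bases by TGTTCT, was in 0 of the 7 member windows given in the reference and in 0.00913% of all windows. Its single arm AGAACA, on either strand, was in 1 of the 7, that of the undetected Ncoa1, and in 19.0% of all. The cAMP response element TGACGTCA was in 0 of the 7 and in 1.79% of all. These matches describe letters in the window and say nothing of binding.

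Stressed replicate 1 and unstressed replicate 6 stand apart from the other 6 arrays. Their log2 signal of Prkcd, a kinase abundant in forebrain regions beneath the cortex, was 10.1 and 10.3, against 7.37 to 7.69 elsewhere, and that of Cux2, a gene of upper cortical layers, was 7.85 and 8.04 against 9.15 to 9.8. Zic1, a transcription factor of the septum and other ventral forebrain, reached 11.86 and 11.63 on this pair, against 8.81 to 9.7 elsewhere. Slc17a7, the vesicular glutamate transporter of cortical excitatory neurons, was detected on all 8 arrays. It was at 12.71 and 12.28 on this pair, against 12.58 to 13.07 elsewhere, so only unstressed replicate 6 lay below the others. The differences of the 10 probes, and of the lists and genes named beside them, are given over all 8 arrays and without these 2. All values are from the deposited value table. A second deposited table carries the same sample names over different signals, and which table holds the labelled arrays is not settled.

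Expression was first read as detection, meaning a detection p under 0.05 on an array, which was reached at a log2 signal of about 6.05 to 6.13. Of the 20 probes, 8 were detected on all 8 arrays, and 7 on none. A probe was tested if at least 4 arrays detected it, which left 10 probes of 7 genes. Nr3c2, Crh and Ncoa1 were not tested, because none of their probes was detected on any array. The log2 signals of the 2 Nr3c2 probes, the mineralocorticoid receptor, ranged from 5.04 to 5.77 across arrays. The single Crh probe lay between 5.23 and 5.92, and the single Ncoa1 probe, for the coactivator SRC-1, between 5.44 and 5.79. For these genes the array gives an upper bound on signal and no comparison. The remaining untested probes were 1 of the 4 of Hsd11b1 (0 arrays), 1 of the 3 of Crhr1 (1 array) and 4 of the 5 of Ncoa2 (0, 0, 1 and 2 arrays). In bulk tissue fewer cells of a type, less RNA per cell and a weak probe cannot be told apart, so a low signal does not say which. The untested Hsd11b1 probe lay at 5.35 to 5.69, while the 3 detected probes annotated to the same transcript lay at 8.57 to 9.71.

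**Figure D1:**
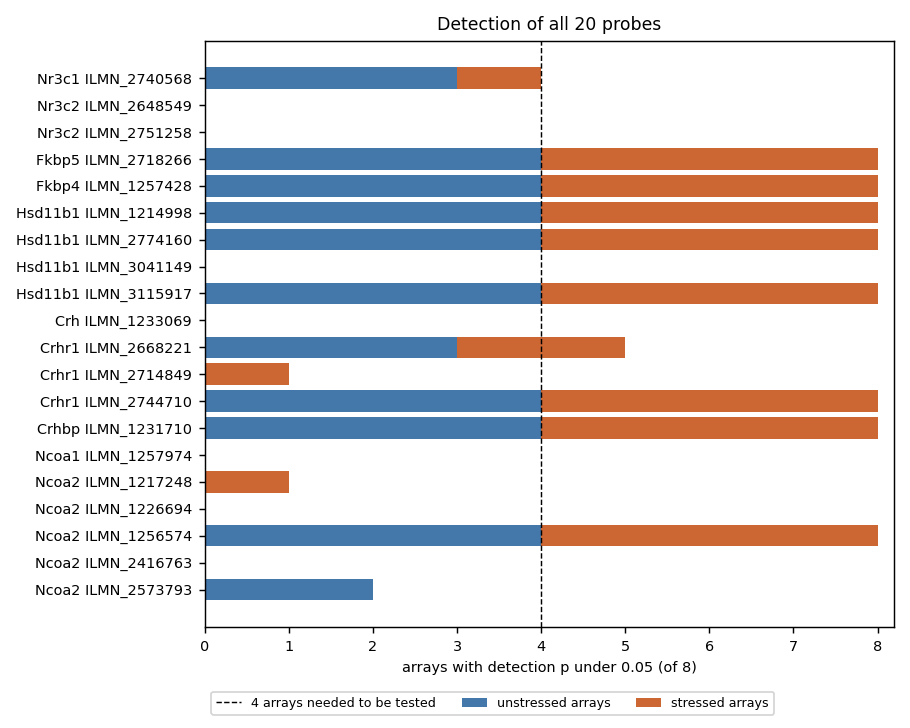
Number of arrays, out of 8, on which each of the 20 probes was detected (horizontal axis), with unstressed arrays in blue and stressed arrays in orange and a dashed line at the 4 arrays needed for a test. Probes of Nr3c2, Crh and Ncoa1 have no bar, and 8 probes reach all 8 arrays.

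The glucocorticoid receptor was close to this limit. Nr3c1 (probe ILMN_2740568) had log2 signals of 6.36, 5.93, 6.04 and 5.85 in stressed replicates 1 to 4, and of 6.28, 6.26, 6.32 and 6.08 in unstressed replicates 5 to 8. It was detected on 3 unstressed arrays and on 1 stressed array, so it entered the test mainly through the unstressed group. The stressed values lay below the unstressed ones except in replicate 1, which was the highest of all 8. The difference on the log2 scale was -0.19 (standard error 0.118, limma adjusted p 0.601), and the two-sided exact permutation p was 0.2. Without the 2 arrays that stand apart no stressed array detected the probe, and the difference was -0.29 with a standard error of 0.107 (limma unadjusted p 0.0233, adjusted p 0.381). In the second table it was 0.23 (limma adjusted p 0.982), the opposite sign. Differences this near background are compressed.

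The co-chaperones were well detected. The log2 signal of Fkbp5 (ILMN_2718266) was 8.17, 7.72, 7.7 and 7.82 in stressed and 7.62, 7.89, 7.24 and 7.44 in unstressed replicates. Unstressed replicate 6 was above 3 of the 4 stressed arrays, and the other unstressed values were below all stressed ones. Stressed samples averaged 7.85 ± 0.218 (SD, n = 4), and unstressed ones 7.55 ± 0.274 (SD, n = 4). The log2 difference of 0.30 had a 95% interval of -0.03 to 0.63 (limma unadjusted p 0.0681, adjusted p 0.509), and the exact permutation p was 0.143. Without the 2 arrays that stand apart it was 0.31, with an interval of 0.05 to 0.57, an unadjusted limma p of 0.0234 and an adjusted p of 0.381. The 3 stressed values, 7.7 to 7.82, were then above the 3 unstressed ones, 7.24 to 7.62. The exact permutation p was then 0.1, the smallest that 3 against 3 arrays can give. The second table gave 0.07 with a standard error of 0.186 (limma adjusted p 0.982).

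Fkbp4 (ILMN_1257428), the paralogue with the opposite action on the receptor, showed no such separation. Its log2 signals were 11.22, 10.85, 11.16 and 10.99 in stressed and 11.21, 11.02, 10.66 and 10.8 in unstressed replicates. The highest stressed and the highest unstressed values were nearly equal. The difference was 0.13 with a 95% interval of -0.16 to 0.42 (limma adjusted p 0.772). Without the 2 arrays it was 0.11 with an interval of -0.23 to 0.44.

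Hsd11b1 was read by 3 detected probes, annotated to the same transcript, that gave the same sign. In probe ILMN_3115917 the log2 signals were 9.16, 9.16, 8.95 and 8.85 in stressed and 9.27, 9.71, 9.02 and 9.36 in unstressed replicates. Of the 4 unstressed arrays only replicate 7 fell within the stressed range in this probe, and replicate 6 was highest of all 8 in each of the 3 probes. The difference on the log2 scale was -0.31 with a standard error of 0.141 (limma unadjusted p 0.0519, adjusted p 0.473; exact permutation p 0.114). Probes ILMN_1214998 and ILMN_2774160 gave differences of -0.22 and -0.20, with limma adjusted p-values of 0.674 and 0.635. Averaging the 3 probes gave -0.25 with a standard error of 0.142 (limma adjusted p 0.622). The difference depended in size on 1 array. Without unstressed replicate 6 the 3 probes were at -0.06, -0.11 and -0.19, and without both arrays that stand apart at -0.13, -0.15 and -0.23, with limma adjusted p-values of 0.709, 0.714 and 0.514. In the second table the 3 probes were higher under the stressed labels, at 0.12, 0.17 and 0.10 (adjusted p 0.982 each).

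The coactivator Ncoa2, also called SRC-2, was dim. Probe ILMN_1256574 had log2 signals of 6.45, 6.37, 6.31 and 6.39 in stressed and 6.72, 6.56, 6.29 and 6.57 in unstressed replicates. Of the unstressed arrays 3 were above all stressed ones, and replicate 7 was below them. The difference was -0.16 with a standard error of 0.101 (limma adjusted p 0.623), and -0.17 without the 2 arrays that stand apart (adjusted p 0.608). The 4 other probes of the gene were not tested.

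In the CRH system the receptor and the binding protein were measurable. Crhbp (ILMN_1231710) had log2 signals of 10.48, 10.28, 10.35 and 10.31 in stressed replicates, a narrow range, and of 10.21, 10.42, 9.92 and 9.86 in unstressed ones. As with Fkbp5, unstressed replicate 6 lay among the stressed values and the other 3 below them. The difference was 0.25 with a 95% interval of -0.03 to 0.53 (limma unadjusted p 0.0707, adjusted p 0.515; exact permutation p 0.171). Without the 2 arrays that stand apart it was 0.32 with an interval of 0.06 to 0.57 (limma unadjusted p 0.0196, adjusted p 0.374), and the groups of 3 did not overlap. The second table gave -0.16 with a standard error of 0.137 (limma adjusted p 0.982), the opposite sign. Sst, the peptide of the interneurons in which Crhbp is commonly found, had a difference of 0.02 (limma adjusted p 0.952). The summed signal of all 14 tested interneuron markers ran from 28932 to 37813 in stressed and from 29670 to 35290 in unstressed samples. It was highest on the 2 arrays that stand apart, and its part in the Crhbp values was not tested.

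Crhr1 (ILMN_2744710) had log2 signals of 7.16, 7.92, 8.12 and 7.96 in stressed and 7.82, 7.31, 8.18 and 8.12 in unstressed replicates. Each group held 1 low array, and these were the 2 arrays that stand apart. The difference was -0.07 with a 95% interval of -0.58 to 0.44 (limma adjusted p 0.946). Without the 2 arrays it was -0.04, and the interval narrowed to -0.31 to 0.22. The dimmer probe ILMN_2668221, detected on 5 arrays, had a difference of -0.13 (adjusted p 0.778), and of -0.17 without the 2 arrays (limma adjusted p 0.529), where its groups of 3 did not overlap.

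**Figure D2:**
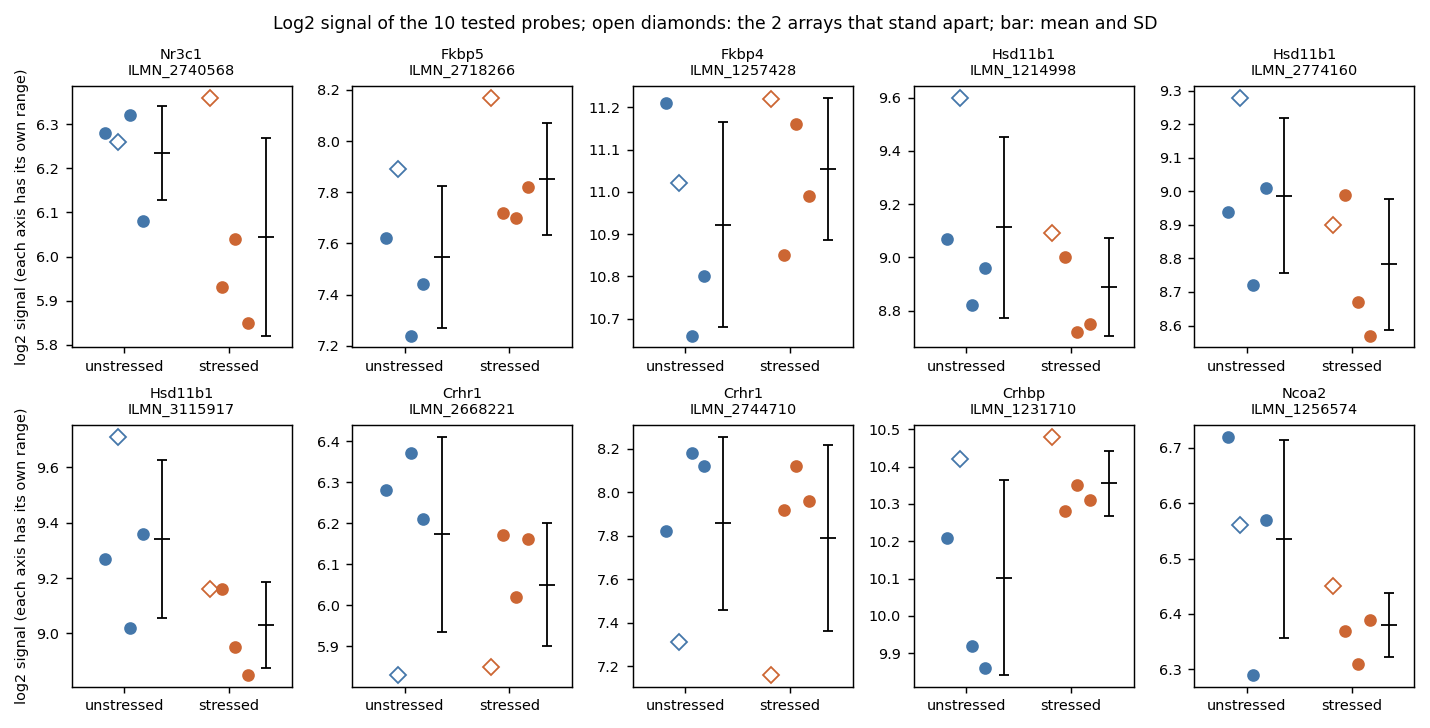
Log2 signal of the 10 tested probes on each array (vertical axes, each with its own range), unstressed in blue and stressed in orange, with mean and SD of 4 arrays as bars. Open diamonds are the 2 arrays that stand apart, which hold the lowest Crhr1 values (7.16 and 7.31 for ILMN_2744710) and the highest Crhbp values (10.48 and 10.42).

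Read as a group, these genes did not stand above the background of the array. Of all 20531 tested probes 10.6% had an unadjusted limma p under 0.05 and 0% an adjusted p under 0.05. Of the 10 member probes, 0 had either, with 3 higher and 7 lower in mean signal. In the second table an unadjusted limma p under 0.05 was reached by 2.76% of all probes and by 1 of the 10, that of Nr3c1. The groups did not overlap in 6.92% of all tested probes and in 0 of the 10. Without the 2 arrays that stand apart 11.5% of all probes had an unadjusted p under 0.05, as did 3 of the 10 (Nr3c1, Fkbp5 and Crhbp). Of these, Nr3c1 had entered the test mainly through the unstressed group, and its only detected stressed array, replicate 1, was left out there. The groups of 3 then did not overlap in 18.3% of all probes and in 4 of the 10, Nr3c1 among them. Of all probes 0.00487% had an adjusted p under 0.05 in that fit, and 0 of the 10 did.

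**Figure D3:**
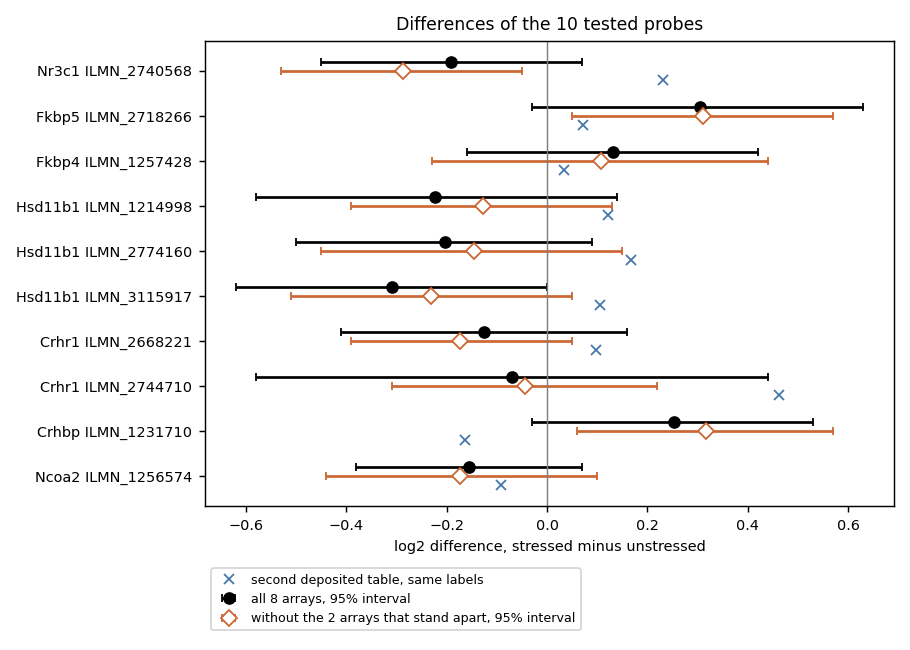
Log2 difference of each tested probe, stressed minus unstressed (horizontal axis), over all 8 arrays (black, 95% interval), without the 2 arrays that stand apart (orange, 95% interval) and in the second table (blue crosses). Intervals over 8 arrays cross 0, those of Nr3c1, Fkbp5 and Crhbp exclude 0 without the 2 arrays, and the second table has the opposite sign for 7 of the 10 probes.

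Several of these genes differed on the 2 arrays that stand apart. In 5 of the 10 tested probes both arrays that stand apart lay beyond all 6 others on the same side, against 17.1% of all tested probes. Fkbp5, Crhbp and Hsd11b1 probe ILMN_1214998 were above, and both Crhr1 probes were below. On these arrays the summed signal of the 10 tested myelin markers was 25671 and 26921, against 7999 to 13541 on the other 6. That of the 12 tested subcortical markers was 9047 and 9944, against 3216 to 4749. Such sums follow the brightest genes, and not every subcortical marker was higher on this pair. Drd1 was at 7.97 and 8.73 in log2 signal, against 8.2 to 9.04 elsewhere. Rgs9 was at 9.44 and 9.46, against 8.69 to 9.51. Cortical excitatory markers (12 tested) summed to 18750 and 19509 on the pair, against 20091 to 24657. The subcortical list includes Prkcd and Zic1, and the excitatory list Cux2, by which the pair was described above. These sums are therefore not independent of that description. The part of these tissues in the values of each gene was not tested.

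The second table holds other signals for the same genes, read here by column whatever the labels. Whether its columns come from other arrays is not settled. There Prkcd was high on 3 columns, named for stressed replicate 3 (9.42) and unstressed replicates 5 (9.81) and 6 (8.58), and lay between 7.29 and 7.72 on the others. Crhr1 (ILMN_2744710) was at 7.29, 7.2 and 6.85 on these 3 columns and at 7.64 to 8.4 on the others. The dimmer Crhr1 probe ILMN_2668221, which was low on the 2 arrays that stand apart in the value table, did not follow in the second table, where it was at 6.1, 6.13 and 6.31 on the 3 columns and at 5.81 to 6.37 on the others. The 2 Crhr1 probes correlated at r = -0.402 there, so low Crhr1 on the high-Prkcd columns was a measurement of 1 of the 2 probes. Fkbp5 was at 8.31, 7.97 and 8.45 on the 3 columns, against 7.66 to 8.04, and Crhbp at 10.01, 10.27 and 10.72, against 10.15 to 10.3. The separation seen in the value table was thus incomplete there for Fkbp5. It was absent for Crhbp, where the 3 columns held both the lowest and the highest value.

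**Figure D4:**
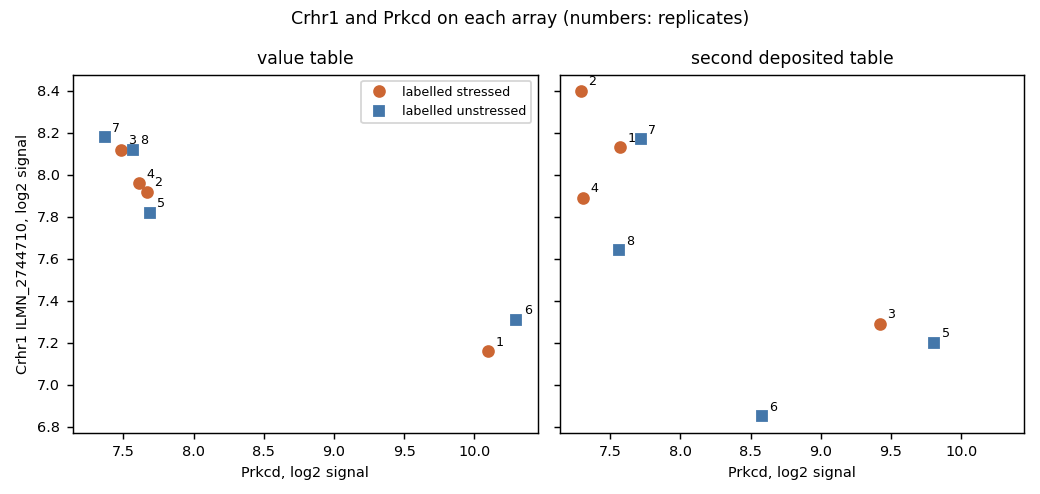
Log2 signal of Crhr1 probe ILMN_2744710 (vertical axis) against that of Prkcd (horizontal axis), on each array of the value table (left) and each column of the second table (right), with replicate numbers beside the points. Arrays with Prkcd above 8 have Crhr1 at or below 7.31, and all others have Crhr1 at or above 7.64.

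By Pearson's r without centring, Fkbp5 and Crhbp had the highest correlation of any pair of different genes among the 10 probes, over 8 and over 6 arrays. Over the 6 arrays that do not stand apart Pearson's r was 0.891 and Spearman's rho 0.771, and with each group centred on its own mean r was 0.685. Other measures put other pairs first over the 6 arrays. Nr3c1 and Crhr1 probe ILMN_2668221 had a higher rho, and with groups centred Fkbp5 and Ncoa2 had an r of 0.97 (-0.916 in the second table) and Fkbp4 and Crhbp one of 0.877. The points share the group difference and any common trend in RNA quality or composition, and in the second table r was 0.475. The 3 Hsd11b1 probes correlated with each other at r = 0.857 to 0.942 over these 6 arrays, and the 2 Crhr1 probes at 0.022. Nr3c1 and Fkbp5 ran in opposite directions over the 6 arrays (r = -0.775), but not with groups centred (r = -0.322) or in the second table (r = -0.079). These correlations describe 6 or 8 arrays and carry no test.

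**Figure D5:**
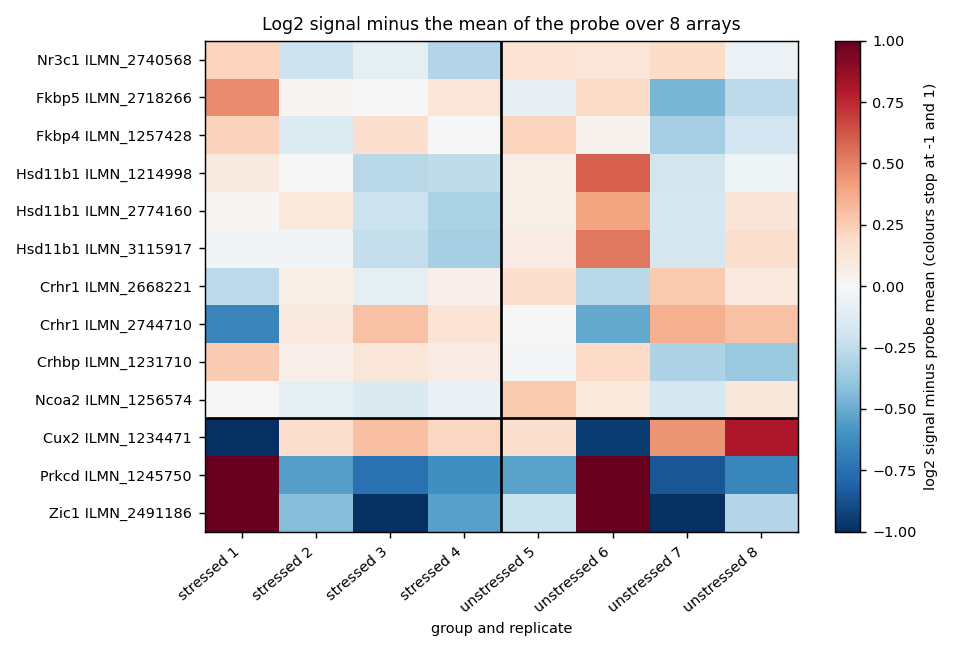
Log2 signal of each tested probe minus its mean over the 8 arrays (colour, red above and blue below the mean), for the 10 tested probes and, under the line, Cux2, Prkcd and Zic1. Stressed replicate 1 and unstressed replicate 6 show low Crhr1 and Cux2 and high Fkbp5, Crhbp, Prkcd and Zic1.

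By Pearson's r over all 8 arrays, the genes most like each member at its brightest tested probe were chosen from 11018 genes. For Fkbp5 these were Map3k1 (r 0.98, and 0.957 over the 6 arrays) and Asb16 (0.974 and 0.957). For Crhbp they were Pdlim1 (0.978 and 0.982) and Polr1d (0.977 and 0.965). For Crhr1 they were Glp2r (0.991 and 0.932) and Car4 (0.989 and 0.913), and for Hsd11b1 Snx22 (0.958 and 0.896) and Ncaph (0.949 and 0.861). Nr3c1 was nearest to Slc15a4 (0.939 and 0.932) and Ndufb5 (0.938 and 0.913), Fkbp4 to Prkar2a (0.971 and 0.969) and Hexim1 (0.945 and 0.929), and Ncoa2 to Pgpep1 (0.961 and 0.962) and Micos13 (0.942 and 0.955). With so few arrays and so many genes, r values of this size are a description of these arrays.

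The receptor complex around Fkbp5 and Fkbp4 was followed in 20 tested genes of Hsp90 chaperones and their partners, each at its brightest tested probe. Their median log2 difference was -0.06, against -0.009 over all 11018 genes, with 7 higher and 13 lower. After adjustment over all probes 0 of the 20 passed. At an unadjusted limma p under 0.05, 5 were lower and 1 higher, where 5.86% of all genes were lower and 4.74% higher.

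Hspa4, an Hsp70 family nucleotide exchange factor, had log2 signals of 6.94, 7.05, 6.82 and 6.85 in stressed and 7.22, 7.31, 7.59 and 7.47 in unstressed samples, without overlap, a difference of -0.48 (limma adjusted p 0.239). Hsp90aa1, the inducible Hsp90, was at 11.22, 10.8, 10.9 and 10.88 against 11.26, 11.31, 11.37 and 11.27, also without overlap. Its difference was -0.35 (adjusted p 0.334), while its other tested probe gave 0.05. The other lower genes were Ahsa1, an activator of the Hsp90 ATPase (-0.27), the Hsp70-interacting protein gene St13 (-0.26) and the kinase co-chaperone Cdc37 (-0.22), with limma adjusted p-values of 0.336, 0.36 and 0.426. Ppid, the Cyp40 immunophilin that competes with Fkbp5 and Fkbp4 for Hsp90, was at 11.44, 11.49, 11.64 and 11.35 in stressed and 11.23, 11.28, 11.2 and 11.1 in unstressed samples, without overlap. Its difference of 0.28 had an adjusted p of 0.351. Of all 20531 tested probes 6.92% had groups that did not overlap. Fkbp8, another FK506-binding protein of the list, had a difference of -0.06. The median of the 20 was -0.04 without the 2 arrays that stand apart, with Hspa4 at -0.52, Hsp90aa1 at -0.44, Ahsa1 at -0.32, St13 at -0.29, Cdc37 at -0.19 and Ppid at 0.32. Of these, Cdc37 no longer had an unadjusted limma p under 0.05 (0.078).

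Other partners of the pathway were mostly without a difference at this precision. Of 18 tested nuclear receptor coregulators 7 were higher and 11 lower (median -0.03), 0 passed the adjusted test, and 2 had an unadjusted limma p under 0.05, a share close to the 10.6% of all 11018 genes. The median was 0.02 without the 2 arrays. The 2 genes were the mediator subunit Med1 (-0.27, and -0.28 without the 2 arrays, adjusted p 0.362, other probes at 0.07 and -0.11) and the chromatin remodelling subunit Smarcd1 (0.40, and 0.45 without the 2 arrays, adjusted p 0.415, other probes at 0.53 and 0.50). Of 20 listed CRH, urocortin and neuropeptide genes 18 were on the array, and 9 of these had no probe detected on any array, among them Ucn, Ucn3, Pomc, Avp and Oxt. Of the 9 tested, Crhr2, the second CRH receptor, had a difference of -0.23 at signals of 5.99 and 6.23, at or near background (limma adjusted p 0.423), and of -0.24 without the 2 arrays. It was detected on 4 unstressed arrays and 1 stressed array, so it entered the test through the group in which it was higher. Pam, which amidates peptides such as CRH, had one of -0.66 (adjusted p 0.231; -0.59 without the 2 arrays), and its other probe was at -0.01. The 9 had a median of -0.08, with 4 higher and 5 lower, and 0.01 without the 2 arrays.

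Enzymes around Hsd11b1 gave no common direction. Of 8 tested steroid metabolism and transport genes 4 were higher and 4 lower (median 0.01, and -0.01 without the 2 arrays that stand apart). H6pd, which supplies Hsd11b1 with its cofactor, had a difference of 0.03 (limma adjusted p 0.948) and one of 0.00 without the 2 arrays. Hsd17b12, a ketoacyl reductase of fatty acid elongation, had one of 0.24 (adjusted p 0.39, other probe 0.21, and 0.23 without the 2 arrays), and 0 of the 8 passed. Hsd11b2, the opposing enzyme, was not detected on any array. Among 19 tested corticosteroid-induced genes 9 were higher and 10 lower, with 0 past the adjusted test and a median of -0.03 without the 2 arrays. At an unadjusted limma p under 0.05 the mean signal of Hif3a (0.89), Plin4 (0.67) and Sult1a1 (0.47) was higher. That of Per1 (-0.49), Ddit4 (-0.33) and Errfi1 (-0.25) was lower, with limma adjusted p-values of 0.231 to 0.443 for the 6. Of all 11018 genes 4.74% were higher and 5.86% lower at this unadjusted p. The other tested probe gave 0.11 for Hif3a and -0.62 for Per1. Plin4 was detected on 4 stressed arrays and 1 unstressed array, so it entered the test through the group in which it was higher. In the same order the 6 differences were 0.82, 0.60, 0.32, -0.58, -0.32 and -0.25 without the 2 arrays, where Sult1a1 and Ddit4 had unadjusted limma p-values of 0.0893 and 0.0824. Tsc22d3 and Sgk1, like Fkbp5 induced by the activated receptor, had differences of 0.13 and -0.01 (adjusted p 0.646 and 0.986), and of 0.09 and -0.05 without the 2 arrays. The other tested probe of Tsc22d3 gave 0.20. Zbtb16 and Dusp1 of the same list had larger differences, of 0.31 and -0.31 (limma adjusted p 0.5762 and 0.7625). Without the 2 arrays these were 0.29 and -0.36.

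Markers of several other cells were mostly lower in stressed samples, but the summed signals of each list overlapped between the groups. Of all 11018 genes 5773 were lower and 5245 higher. Blood markers were lower in 7 of 7 tested genes (median -0.48, and -0.70 without the 2 arrays), with Hba-a1 at -0.67 and Hbb-bt at -0.69 over all arrays, and the summed signal was 20288 to 42220 in stressed and 34206 to 59801 in unstressed samples. Endothelial, mural and meningeal markers were lower in 13 of 17 (median -0.15, and -0.25 without the 2 arrays), and summed to 7819 to 16384 and 10644 to 15941. Among them Itm2a (-0.57), Cldn5 (-0.44), Ptgds (-0.44) and Pdgfrb (-0.21) were lower at an unadjusted limma p under 0.05, as were 5.86% of all 11018 genes. Myelin markers were lower in 10 of 10 (median -0.27, Opalin -0.47), choroid plexus markers in 4 of 5 (Ttr -1.48) and subcortical markers in 10 of 12 (median -0.11, Slc17a6 -0.35), the last with a median of 0.00 without the 2 arrays. Astrocyte markers were lower in 7 of 12 (Glul -0.29, Acsbg1 -0.32) and microglial markers in 6 of 10 (P2ry12 -0.43, Gpr34 -0.33, Cx3cr1 0.20). The other tested probe gave 0.04 for P2ry12, -0.38 for Gpr34 and -0.19 for Acsbg1. Interneuron markers were higher in 10 of 14 (median 0.02, Pvalb -0.48), and cortical excitatory markers in 6 of 12 (Rorb 0.36, other probes at -0.07 and -0.04). The medians without the 2 arrays were -0.33 for myelin, -0.14 for choroid plexus, -0.12 for astrocyte, -0.16 for microglial, 0.00 for interneuron and 0.01 for cortical excitatory markers, and Ttr was at -2.05, Hba-a1 at -1.06, Hbb-bt at -0.96 and Slc17a6 at -0.02. None of these genes passed the adjusted limma test over 8 arrays, whose smallest adjusted p over all probes was 0.152. Their part in the differences of Fkbp5, Crhbp and Hsd11b1 was not tested.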

How the data were processed

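Per the labels' protocols, RNA purified on RNeasy columns was amplified to biotinylated cRNA (Ambion MessageAmp) and hybridized to Illumina arrays. The authors deposited 2 tables of linear probe signal intensity over 45281 probes, the second with a deposited detection p-value beside each signal. No source used here states how scanner output was processed. Both tables look quantile-normalized, so no further normalization was applied. The second was nevertheless deposited under a name that calls it non-normalized. Each array's detection p never rose with its signal in the value table (0% of steps), but rose at 33.4% to 36.8% of steps in the second table, so the value table was analysed with these p-values. Between 20012 and 21038 probes were detected per array.

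Groups came from the sample titles. Signals were analysed as log2 values, with no pseudocount. The 20531 probes detected (p under 0.05) on 4 or more of the 8 arrays were fitted with limma 3.58.1 (lmFit and eBayes) in R 4.3.3, adjusted by Benjamini-Hochberg over all of them, and member probes also had two-sided exact permutation tests (smallest p 0.0286). The fit was tested on simulated data for the stressed against unstressed comparison over 20531 probes in 10 runs, with 200 probes shifted. At an adjusted p under 0.05, 39.8% of shifts of 0.5 and 88.0% of shifts of 1 on the log2 scale were recovered. The mean number of false calls was 6. The simulated noise was independent between probes and arrays and held no arrays that stand apart, so these rates are not the power in these data. The number of arrays limits the precision, with a median standard error of 0.108.

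Probes were named through the platform annotation, and updating by Entrez gene ID changed 0 of the listed symbols. All member probes are described. From each other list the genes with an unadjusted p under 0.05, or else that of smallest p, were named, at the brightest tested probe of each gene, and for each member the 2 genes of highest correlation. Genes beyond this rule (Sst, H6pd, Tsc22d3, Sgk1, Zbtb16, Dusp1, Drd1, Rgs9, Slc17a7 and those named as undetected) were chosen after their values were seen. The members and lists were chosen with earlier results of these data known. Alternatives were no detection filter or detection on all arrays, array weights (statmod 1.5.0), a trended and robust variance, cyclic loess, normexp background correction with offset 50, the second table, the mean of a gene's tested probes and leaving out arrays. Probe sequences and coordinates were not used here.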

Additional observations from a re-analysis of the deposited data

How the results depend on the processing

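The 10 tested probes were refitted under 8 other settings and with each array left out, and each was also set against the mean of its gene's tested probes. Of these comparisons 143 kept the direction and the side of an unadjusted limma p of 0.05, 15 passed it in the same direction and 10 changed sign. No member probe reached an adjusted p under 0.05 in any of these fits. The second table gave the opposite sign for Nr3c1 (0.232), Hsd11b1 (0.121, 0.167 and 0.105), Crhr1 (0.097 and 0.463) and Crhbp (-0.163), and the cause was not tested. With single arrays left out Crhr1 probe ILMN_2744710 ran from -0.252 to 0.139, with the sign turned without stressed replicate 1 or unstressed replicate 7 or 8. Over the same fits Fkbp5 ran from 0.198 to 0.417, Crhbp from 0.172 to 0.359, Nr3c1 from -0.297 to -0.126, Fkbp4 from 0.044 to 0.227 and Ncoa2 from -0.238 to -0.094. Among the 10 tested probes the number at an unadjusted limma p under 0.05, 0 over all arrays, was 2 with no detection filter (Fkbp5 and Hsd11b1 probe ILMN_3115917). It was 1 with trend and robust variance, 2 with array weights, 1 in the second table and 3 without the 2 arrays that stand apart. With single arrays left out it ran from 0 to 3. It was 2 without stressed replicate 1 (Nr3c1 and Hsd11b1 probe ILMN_3115917), 3 without unstressed replicate 6 (Fkbp5, Crhbp and Crhr1 probe ILMN_2668221) and 2 without unstressed replicate 7 (Hsd11b1 probe ILMN_3115917 and Ncoa2). Over all probes the number past an adjusted p of 0.05 was 0, and 1 without the 2 arrays. The 2183 probes at an unadjusted p under 0.05 became 3770 with no detection filter, where 45281 probes are fitted, and 567 in the second table. Detection on all 8 arrays gave no value for Nr3c1 and the dimmer Crhr1 probe. Probes near background carry compressed differences. No paired analysis was possible because the replicate numbers run from 1 to 8 and the groups share none.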
